A study of Homo sapiens with 2 samples.

Results

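The 55 genes described here encode the lysosome and the autophagy machinery that feeds it. They were chosen by function, as a list of gene names, and all 55 were found among the 26370 gene names of the deposited files. The level of a gene is its FPKM (fragments scaled to transcript length and library size) summed over its transcripts, so levels of different genes are compared per length. The RNA was from CHME3 cells at passages 4 to 6, a human line made to grow without limit and labelled as microglia. The untreated group was 1 library of cells with no treatment named beyond culture. The treated group was 1 library of cells exposed to muscarinic receptor antagonists, dosed at the EC50 of 5 µg/ml, with no compound and no exposure time given. Such drugs block a class of acetylcholine receptors. With 1 library per group there was no replicate check and no test of the treatment.

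Lysosomes are acid compartments in which hydrolases break down proteins, glycans and lipids. A proton pump, the V-ATPase, keeps them acid, and membrane proteins such as LAMP1 and LAMP2 line them. Autophagy delivers cell contents to them: a kinase complex and a lipid kinase complex start a membrane cup, ubiquitin-like proteins of the ATG8 family are attached to it, and cargo receptors dock on them. The transcription factors TFEB and TFE3 bind an E-box variant known as the CLEAR element in promoters of many of these genes. Microglia, the phagocytes of the brain, rely on lysosomes to digest what they engulf.

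The CLEAR element is shown here because it is the sequence feature through which many of these genes are known to be regulated together. Promoters from 250 bases before to 50 bases after the start, credited to RefSeq on GRCh38.p14, were matched for 42 of the 55 genes. The most abundant transcript in the deposited files began within 100 bases of that start in 27 of the 42. For CTSA the nearest start in the files lay 383 bases away, so its window below falls inside the gene as measured. The CTSD window also falls inside the gene as measured, as do the marked motifs of ATG14 and ATG3. The table held no entry for ATP6V1A, ATP6V1H, CTSB, CTSK, CTSS, HEXA, LAMP2, LAMP3, MANBA, MAP1LC3A, NAGLU, PSAP and UVRAG. The motifs searched on both strands were the E-box core CACGTG, the 7-base form TCACGTG and the 8-base palindrome TCACGTGA, each of which contains the one before it. The core was present in 8 of 42 members (19.0%), against 8.77% of 27305 genes with a promoter and 12.6% of the 8827 of them with a mean of at least 1 FPKM. All 8 of these members held the 7-base form, which 4.49% of all genes and 7.36% of the genes over 1 FPKM held. The 8-base form was present in 6 of 42 members (14.3%), against 1.18% and 2.40% of genes. These are counts of letters, not of bound sites.

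The LAMP1 promoter held the 7-base form 6 times. Its upstream stretch carried 4 of these copies at steps of 16, 17 and 17 bases, between 193 and 137 bases before the start. The capitals mark the 7-base motif.

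LAMP1, chr13:113297035-113297114, plus strand: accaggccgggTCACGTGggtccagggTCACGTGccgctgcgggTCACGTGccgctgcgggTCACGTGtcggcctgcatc

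The other members with the motif are shown by 1 window of 30 bases each, 5′ to 3′ on the strand of the gene. They cover the membrane channel MCOLN1, the hydrolases CTSA, CTSD and GAA, the pump subunit ATP6V0D1 and the autophagy genes ATG3 and ATG14. The capitals mark the longest of the 3 motif forms, which reads CACGTGA where the 7-base form lies on the opposite strand.

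MCOLN1, chr19:7522571-7522600, plus strand: accagaggcggTCACGTGAggggctctggg

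CTSA, chr20:45891298-45891327, plus strand: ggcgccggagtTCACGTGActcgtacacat

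CTSD, chr11:1763956-1763985, minus strand: ccggccgcgccCACGTGAccggtccgggtg

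GAA, chr17:80101493-80101522, plus strand: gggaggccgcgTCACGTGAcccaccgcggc

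ATP6V0D1, chr16:67481199-67481228, minus strand: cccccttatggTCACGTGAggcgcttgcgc

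ATG3, chr3:112561940-112561969, minus strand: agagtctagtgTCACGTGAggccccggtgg

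ATG14, chr14:55411833-55411862, minus strand: aaacaaaatccCACGTGActggctctcctc

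Members with and without the 7-base motif had medians close to 0. In the 8 with it, the median log2 ratio (treated to untreated) was 0.01, with 4 higher and 4 lower, and in the 34 members whose promoters lacked it 0.03, with 18 higher and 16 lower. The median level was 34.7 FPKM in untreated and 35.0 FPKM in treated cells for members with the motif, and 22.7 FPKM in both for those without.

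The libraries were of similar depth, at an estimated 6814249 fragments in untreated and 7300465 in treated cells. Of 13 markers of microglia and macrophages, 12 had a mean under 1 FPKM and 7, among them CX3CR1, TMEM119 and AIF1, were listed at 0 in both. The exception was CD14, at 1.97 FPKM untreated and 1.63 treated. The 11 fibroblast and mesenchymal markers summed to 5759 FPKM in untreated and 6258 in treated cells, with 7 over 1 FPKM. Most of the sum was FN1, at 2725 untreated and 3021 treated, and VIM, at 1967 and 2025. COL1A2 was at 0.196 and 0.157 FPKM, and COL3A1, DCN and LUM were listed at 0 in both. Of 5 astrocyte markers, SLC1A3 was over 1 FPKM, at 3.97 untreated and 5.25 treated, and of 5 neuron markers TUBB3, at 29.3 and 29.9. Markers of oligodendrocytes and endothelium were all under 1 FPKM. The microglia label was thus not borne out by its defining markers, and the cells are called CHME3 here. Listed 18S ribosomal RNA (RNA18S5) was at 363 FPKM untreated and 759 treated, a ratio of 2.09. These differences go with every comparison below, and their part in it was not tested.

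Lysosome and autophagy genes as a group were at the same level in both libraries. The 55 genes summed to 2475 FPKM in untreated and 2479 FPKM in treated cells, and their order was nearly the same. Across the 55 genes, which share the same 2 libraries and are not replicates, the log2(FPKM + 1) values gave a Pearson's r of 0.996 and a Spearman's rho of 0.995. No gene moved by more than 4 places in the order. A mean of at least 100 FPKM was listed for 9 genes, 10 to 100 FPKM for 31, and 1 to 10 FPKM for 12. The remaining members, LAMP3, CTSS and MAP1LC3A, had a mean under 1 FPKM, the floor below which a gene was left out of counts of differences.

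**Figure D1:**
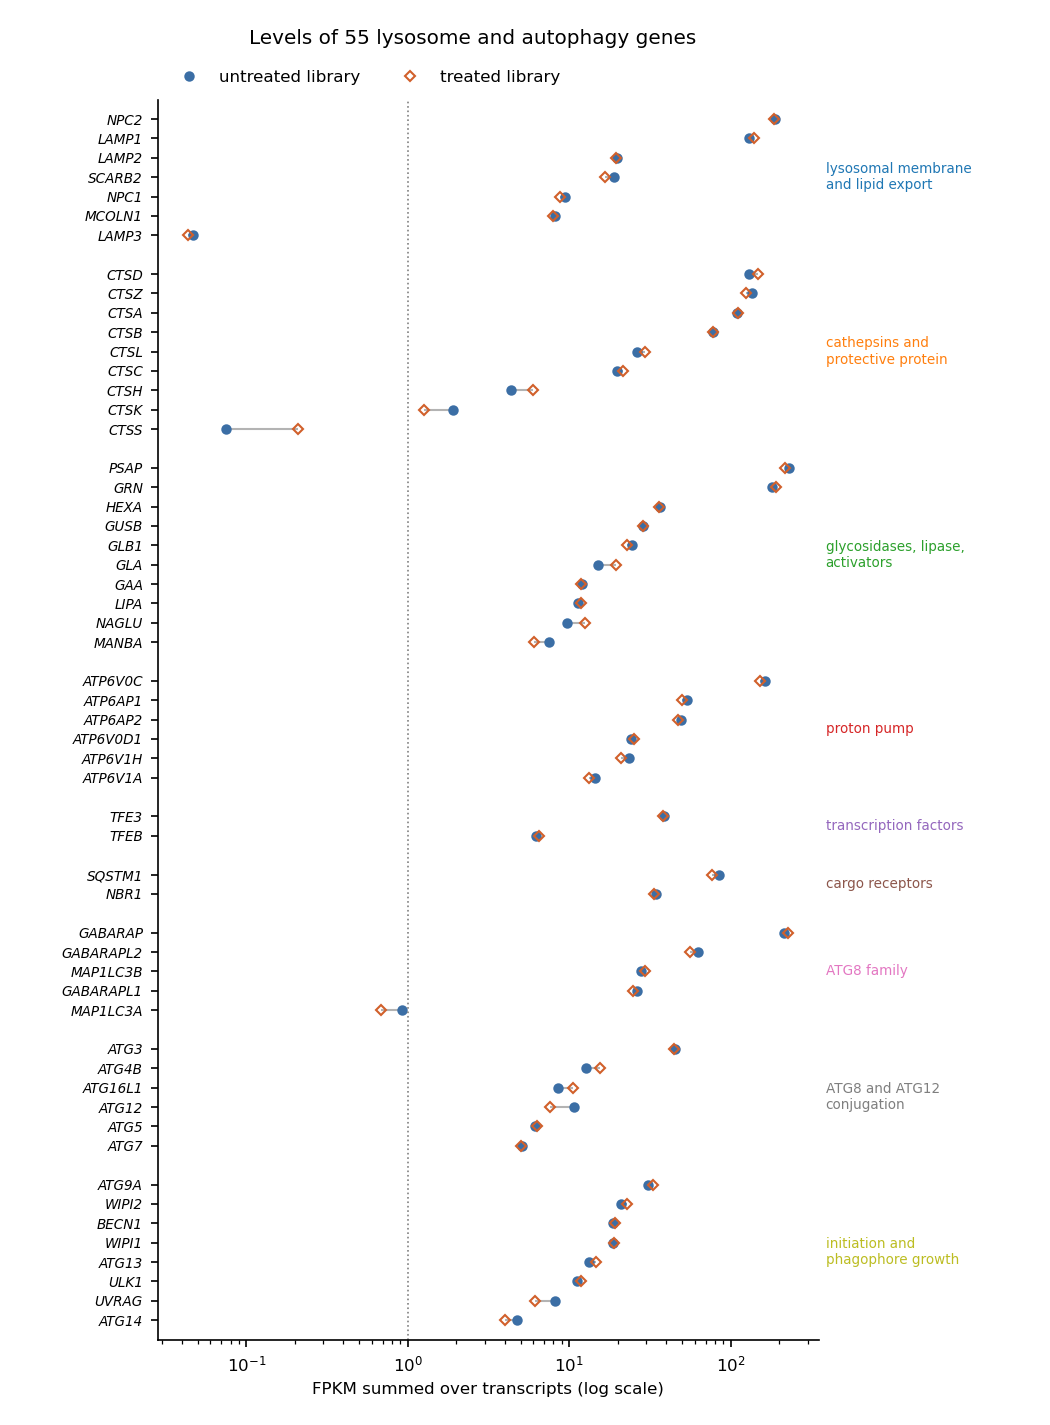
FPKM of each of the 55 genes on a log axis, in the untreated (filled circle) and the treated library (open diamond), ordered by role and level, with a dotted line at 1 FPKM. The pairs of symbols nearly coincide for most genes, and LAMP3, CTSS and MAP1LC3A lie left of the line.

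The difference between libraries was measured as log2 of (treated FPKM + 1) over (untreated FPKM + 1), so the ratio of a weakly expressed gene is understated. Its median over the 52 members above the floor was -0.01, with quartiles of -0.09 and 0.07. Over all 11668 genes above the floor the median was 0.00, with quartiles of -0.10 and 0.11. Of the 52 members, 24 were higher and 28 lower in the treated library, and 37 lay within 1.1-fold. On this scale, at least 1.2-fold higher were 5 members, against 8.1% of all genes, and at least 1.2-fold lower were 4, against 6.79%. At least 1.5-fold higher were 0 members, against 1.2% of all genes, and at least 1.5-fold lower 0, against 1.03%. The plain FPKM ratio of CTSK, 0.664, lay beyond 1.5-fold, with an interval that includes 1. None reached 2-fold in either direction, against 0.351% and 0.309%. These shares are near those of all genes.

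Counting error was shown by a 95% exact conditional binomial (Clopper-Pearson) interval of the FPKM ratio, from fragments recovered from the authors' bounds. Such an interval compares 2 libraries, not 2 conditions, and leaves out the spread between cultures, PCR duplicates and the division of fragments among isoforms. It lay above 1 in 6 of 52 members, against 6.41% of all genes, and below 1 in 6, against 6.05%. The members had more fragments than most genes, with a median of 804 over both libraries against 422. Among genes with at least 100 fragments the intervals lay above 1 in 6 of 50 members and in 6.88% of genes, and below 1 in 6 of 50 and 6.59%. With at least 500 fragments they lay above 1 in 3 of 37 members and 7.74% of genes, and below 1 in 5 of 37 and 9.17%. A 99% interval lay above 1 for CTSD alone, against 2.68% of all genes, and below 1 for PSAP, ATG12 and UVRAG, against 2.45%. In 26 members with 1 transcript, the authors' own bounds did not overlap for CTSD, higher, against 1.74% of such genes, and for UVRAG, lower, against 1.52%.

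**Figure D2:**
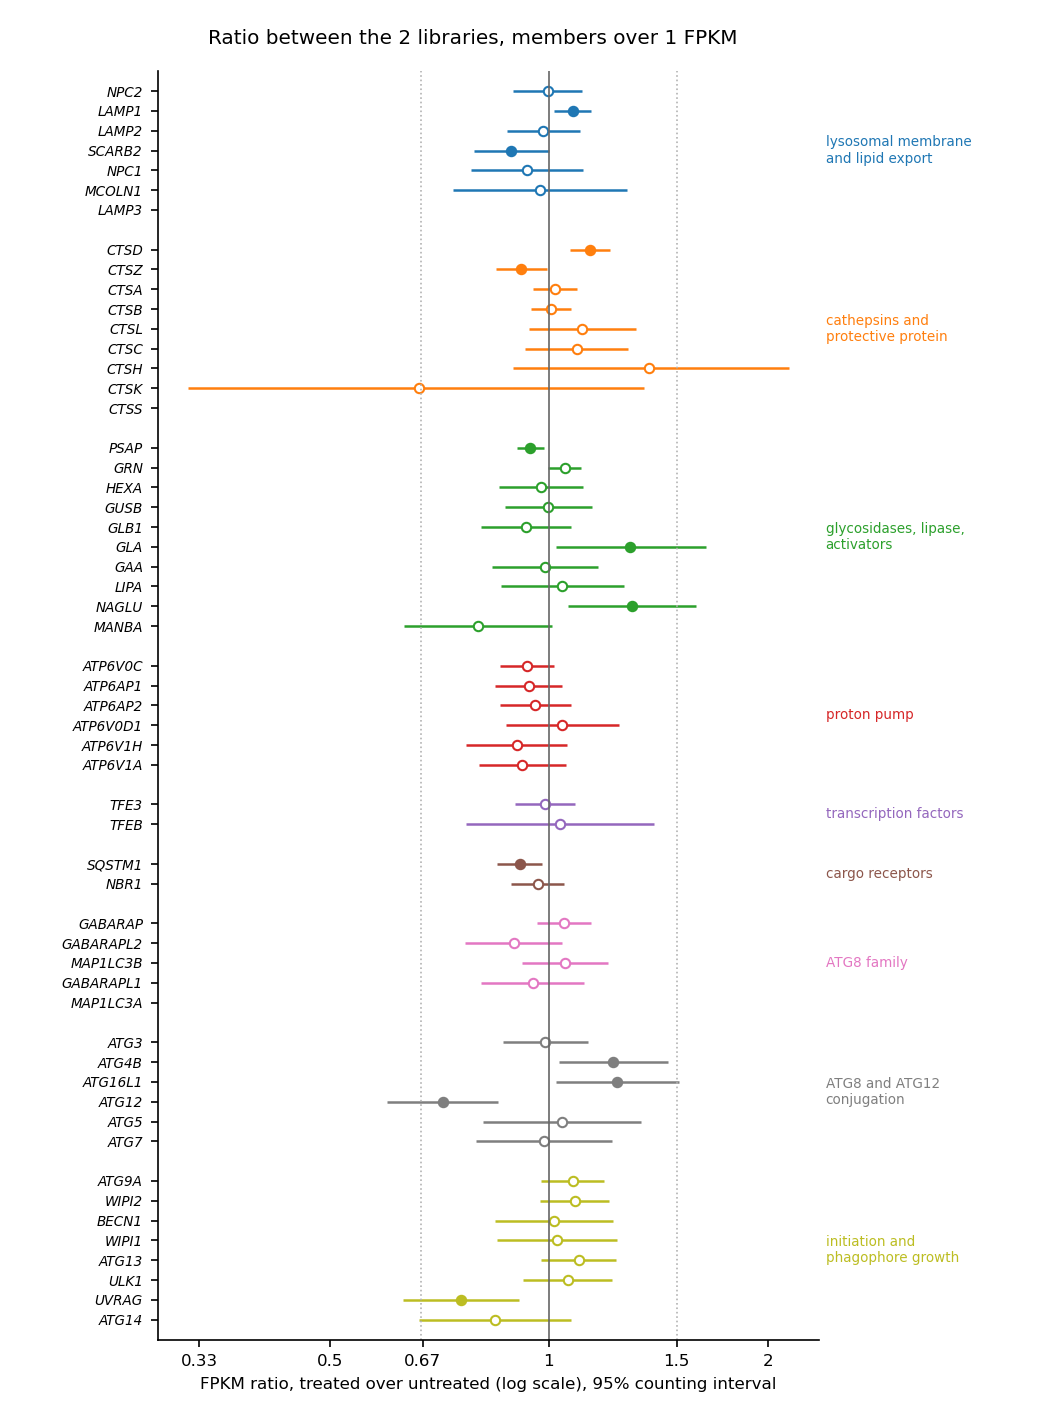
FPKM ratio of treated over untreated with its 95% counting interval, on a log axis, for the 52 members above 1 FPKM, coloured by role. Filled points mark the 12 intervals that leave out 1, the dotted lines mark 1.5-fold, and LAMP3, CTSS and MAP1LC3A have no point.

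Cathepsins, the lysosomal proteases, were among the most abundant members. CTSD, an aspartic protease (chromosome 11, 1752752 to 1763992), was at 129 FPKM in untreated and 147 in treated cells. That was a ratio of 1.14 (1.07 to 1.21), the bracket being the 95% counting interval, with 1698 and 2089 fragments. CTSZ, a carboxypeptidase (chromosome 20, 58995187 to 59007254), lay the other way, at 137 and 125 FPKM, giving a ratio of 0.916 (0.845 to 0.993). The 2 genes were thus at similar levels and exchanged places in the order of the cathepsins. CTSA, the protective protein that stabilises beta-galactosidase and neuraminidase, was at 109 and 111 FPKM, and CTSB, a cysteine protease, at 77.7 and 78.2.

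The less abundant cathepsins had wider intervals, all of which include 1. CTSL, a cysteine protease, was at 26.5 FPKM untreated and 29.4 treated, and CTSC, which activates serine proteases, at 19.8 and 21.6. CTSH, an aminopeptidase, was at 4.36 and 5.99 FPKM with 38 and 54 fragments and a ratio of 1.37 (0.891 to 2.14). CTSK, known as the collagenase of osteoclasts, was at 1.90 and 1.26 FPKM with 21 and 15 fragments and a ratio of 0.664 (0.318 to 1.35). CTSS, a cathepsin known from microglia and macrophages, was at 0.0747 and 0.209 FPKM from 2 and 6 fragments, where 3 fragments correspond to 0.112 and 0.105 FPKM. Over the 8 cathepsin members above the floor the median log2 ratio was 0.07, with 6 higher and 2 lower.

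Glycosidases and lipid-degrading enzymes spanned a wide range of levels. PSAP, the precursor of the saposins that help glycosidases reach lipids (chromosome 10, 71816298 to 71851325), had the highest mean of the 55 genes, at 230.0 FPKM untreated and 217 treated. Its ratio was 0.943 (0.903 to 0.985), from 4128 and 4178 fragments. GRN, progranulin, a secreted and lysosomal glycoprotein, was at 181 and 191 FPKM, giving a ratio of 1.05 (0.997 to 1.11).

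Both members of this group at least 1.2-fold higher were glycosidases encoded by single-transcript genes. GLA, alpha-galactosidase A, which removes galactose from globotriaosylceramide (chromosome X, 101397791 to 101408013), was at 15.0 FPKM untreated and 19.5 treated, from 125 and 170 fragments. NAGLU, which degrades heparan sulfate (chromosome 17, 42535933 to 42544448), was at 9.66 and 12.6 FPKM, giving a ratio of 1.30 (1.06 to 1.60). MANBA, a beta-mannosidase, was lower, at 7.55 and 6.03 FPKM, giving a ratio of 0.799 (0.632 to 1.01) that includes 1. MANBA thus lay the other way from GLA and NAGLU, but within counting error.

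The remaining enzymes lay within 1.1-fold. HEXA, a hexosaminidase subunit, was at 36.7 FPKM untreated and 35.8 treated, GUSB, a beta-glucuronidase, at 28.6 and 28.5, and GLB1, beta-galactosidase, at 24.5 and 22.7. GAA, which degrades glycogen, was at 12.02 and 11.9 FPKM, and LIPA, the acid lipase for cholesteryl esters, at 11.4 and 11.9. Over the 10 genes of this group the median log2 ratio was -0.01, with 4 higher and 6 lower.

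Membrane proteins of the lysosome differed little. LAMP1, a main glycoprotein of the membrane, was at 130.0 FPKM in untreated and 140.2 in treated cells, a ratio of 1.08 (1.02 to 1.14). SCARB2, which carries glucocerebrosidase to lysosomes, was lower, at 18.9 and 16.7 FPKM, giving a ratio of 0.888 (0.790 to 0.999). LAMP2 was at 19.9 and 19.6 FPKM, and LAMP3, known from dendritic cells, at 0.0465 and 0.0433 from 1 fragment in each library, where 3 fragments correspond to 0.140 and 0.130 FPKM.

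Cholesterol leaves lysosomes through NPC2, a soluble carrier, and NPC1, a membrane transporter. NPC2 was at 188 FPKM in untreated and 187 in treated cells, and NPC1 at 9.37 and 8.74. MCOLN1, the lysosomal calcium channel TRPML1, was at 8.22 and 7.99 FPKM. All 3 intervals include 1. Over the 6 membrane and export genes above the floor the median log2 ratio was -0.03, with 1 higher and 5 lower.

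The V-ATPase consists of a membrane ring sector and a cytosolic sector that hydrolyses ATP. The ring subunit ATP6V0C was at 163 FPKM untreated and 152 treated, a ratio of 0.934 (0.857 to 1.02), and ATP6V0D1, which couples the sectors, at 24.1 and 25.1. The catalytic subunit ATP6V1A was at 14.4 and 13.2 FPKM and the regulatory subunit ATP6V1H at 23.3 and 21.1. The accessory proteins ATP6AP1 and ATP6AP2 were at 53.5 and 50.2 and at 49.1 and 47.1 FPKM. Of the 6 pump members 5 were lower and 1 higher, with a median log2 ratio of -0.09, and all 6 intervals include 1. Of the 13 other V-ATPase subunits above the floor, 6 were higher and 7 lower, with a median of -0.03. The lean of the 6 members was therefore not seen over these 13 subunits, but their sectors differed. In the cytosolic sector ATP6V1B2, ATP6V1C1, ATP6V1D, ATP6V1E1, ATP6V1F and ATP6V1G2 were lower and ATP6V1G1 was higher. In the membrane sector ATP6V0A1, TCIRG1, ATP6V0B, ATP6V0E1 and ATP6V0E2 were higher and ATP6V0A2 was lower. Of the 13, only ATP6V1E1 had an interval that leaves out 1. These differences were not tested.

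The transcription factors and cargo receptors of the pathway were close to equal. TFE3 was at 38.8 FPKM in untreated and 38.3 in treated cells, and its relative TFEB at 6.25 and 6.48, from 88 and 98 fragments. Both intervals include 1. SQSTM1 (p62), a receptor for ubiquitinated cargo (chromosome 5, 179806388 to 179838077), was at 84.3 and 76.9 FPKM, giving a ratio of 0.912 (0.849 to 0.979). NBR1, a receptor that binds SQSTM1, was at 34.6 and 33.4 FPKM, giving a ratio of 0.965 (0.887 to 1.05).

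The ATG8 family, whose proteins are joined to lipid on the forming membrane, was dominated by GABARAP. GABARAP was at 215 FPKM in untreated and 226 in treated cells, followed by GABARAPL2 at 62.5 and 55.9, MAP1LC3B at 28.0 and 29.5 and GABARAPL1 at 26.3 and 25.0. In the untreated library MAP1LC3B and GABARAPL1 thus lay close together, with authors' bounds of 25.2 to 30.8 and 23.2 to 29.3 FPKM. MAP1LC3A was at 0.923 and 0.681 FPKM from 5 and 4 fragments, where 3 fragments correspond to 0.553 and 0.512 FPKM. None of the 4 members above the floor had an interval that leaves out 1, and their median log2 ratio was 0.00.

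The conjugation enzymes held the member with the lowest log2 ratio. ATG12, the ubiquitin-like protein that is joined to ATG5 (chromosome 5, 115828197 to 115841851), was at 10.7 FPKM in untreated and 7.64 in treated cells. Its log2 ratio was -0.44 and its FPKM ratio 0.714 (0.599 to 0.850), from 302 and 232 fragments. Its main transcript, NM_004707, was at 9.69 FPKM untreated and 6.92 treated, with authors' bounds that did not overlap. The share of such transcripts among all genes with several transcripts was not counted.

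None of the other conjugation members had an interval below 1. ATG16L1, which binds the ATG12 and ATG5 conjugate and places it on the membrane (chromosome 2, 233251571 to 233295674), was at 8.51 FPKM untreated and 10.6 treated, a ratio of 1.24 (1.02 to 1.51). ATG4B, the protease that trims ATG8 proteins (chromosome 2, 241637612 to 241673856), was at 12.7 and 15.6 FPKM, giving a ratio of 1.23 (1.03 to 1.46). ATG5 was at 6.10 and 6.36 FPKM, ATG7, which activates both ubiquitin-like proteins, at 5.09 and 5.01, and ATG3, which hands ATG8 proteins to lipid, at 45.3 and 44.8. The 6 genes had a median log2 ratio of 0.02, with 3 higher and 3 lower.

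Among the initiation genes, UVRAG was the one with an interval below 1. UVRAG, a subunit of a BECN1 lipid kinase complex (chromosome 11, 75815167 to 76144238), was at 8.15 FPKM untreated and 6.17 treated, a ratio of 0.757 (0.631 to 0.909), from 270 and 218 fragments. ATG14, the subunit that takes the place of UVRAG in the complex that starts autophagy, was at 4.73 and 3.99 FPKM, giving a ratio of 0.844 (0.662 to 1.07). BECN1 itself, which both complexes contain, was at 18.8 and 19.1 FPKM.

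The other initiation genes were slightly higher, all with intervals that include 1. ULK1, the kinase that starts autophagy, was at 11.2 FPKM untreated and 11.9 treated, and its partner ATG13 at 13.3 and 14.7. ATG9A, a lipid scramblase of the forming membrane, was at 30.7 and 33.1 FPKM. WIPI1 and WIPI2, which bind the lipid that the kinase complex makes, were at 18.6 and 19.1 and at 20.9 and 22.7 FPKM. Of the 8 genes of this group 6 were higher and 2 lower, with a median log2 ratio of 0.06.

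**Figure D3:**
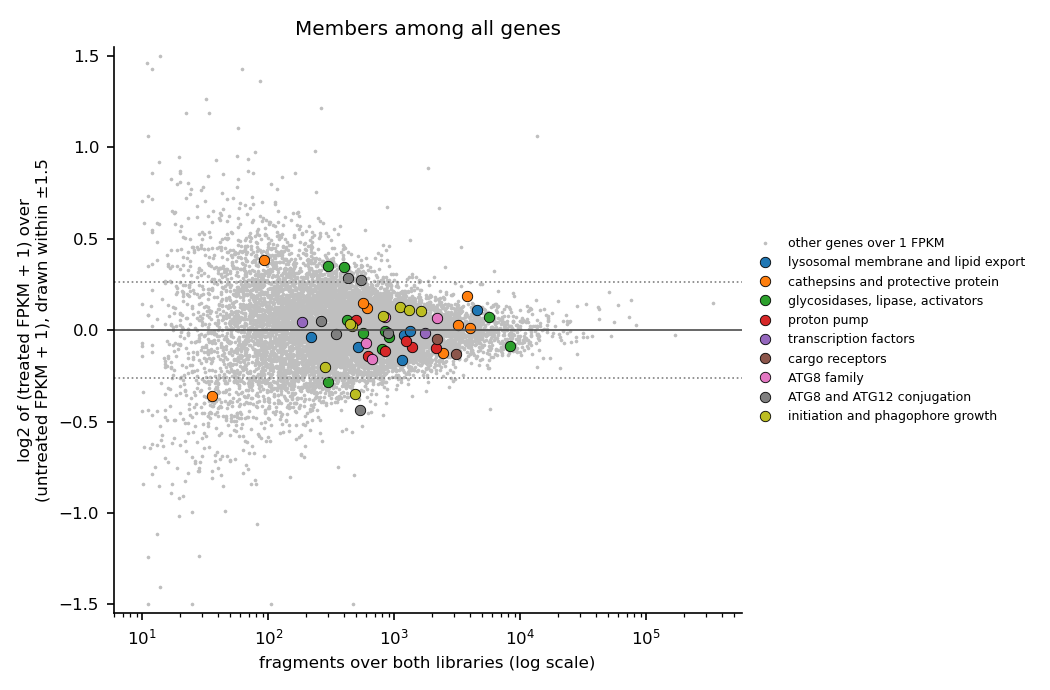
Log2 of (treated FPKM + 1) over (untreated FPKM + 1) against fragments over both libraries (log axis) for genes above 1 FPKM with at least 10 fragments (grey, drawn within ±1.5) and members (coloured by role), with dotted lines at 1.2-fold. The members lie inside the grey cloud, with ATG12 lowest at -0.44 and CTSH highest at 0.38.

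The deposited values are per transcript, so the make-up of each gene could be described. LAMP2 has 3 forms that differ at the end of the protein. LAMP2B (NM_013995) was at 17.1 FPKM untreated and 16.5 treated, or 85.8% and 84.1% of the gene. LAMP2A (NM_002294), the receptor of chaperone-mediated autophagy, was at 2.82 and 3.12 FPKM, or 14.2% and 15.9%, and LAMP2C was listed at under 0.001 FPKM in both. The records differ in the last 5315 bases of A and the last 2800 bases of B. TFEB was listed almost wholly as NM_001271944, at 6.25 and 6.47 FPKM.

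Shares of transcripts that differ by short stretches moved more than the genes did. A transcript's share moved by at least 10 percentage points in 9 of 20 members that had at least 2 transcripts of at least 1 FPKM, a mean of at least 5 FPKM and at least 50 fragments. The same held for 40.1% of the 3652 genes of that kind, so such shifts were common throughout these files. Members that passed were CTSL, GAA, GUSB, LIPA, NBR1, ATG5, ATG16L1, WIPI2 and ATG9A.

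The transcripts of ATG9A exchanged places. NM_001077198 was at 14.2 FPKM (authors' bounds 12.2 to 16.2) in the untreated and 25.5 (23.0 to 27.9) in the treated library, and NM_024085 at 15.8 (13.7 to 17.9) and 6.25 (4.87 to 7.62). The records differ by 52 bases, at positions 155 to 206 of NM_001077198. The share of NM_001077198 was thus 46.3% and 77.0%, while the sum of the gene differed by a ratio of 1.08.

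NBR1 and ATG5 showed the same exchange. For NBR1, NM_005899 was at 13.0 FPKM (11.3 to 14.8) untreated and 21.9 (19.8 to 23.9) treated, and NM_031862 at 20.7 (18.6 to 22.9) and 11.1 (9.57 to 12.7). The records differ in their first 333 and 141 bases. For ATG5, NM_001286107 was at 1.52 FPKM (0.788 to 2.26) and 3.66 (2.69 to 4.62) and NM_004849 at 4.58 (3.51 to 5.65) and 2.43 (1.58 to 3.29). NM_004849 holds 128 bases, at its positions 462 to 589, that NM_001286107 lacks. In these genes the authors' bounds of each pair did not overlap between libraries. How often this held in other genes with several transcripts was not counted, so it does not set these genes apart.

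The other 6 genes shifted less or from lower levels. In WIPI2, NM_016003 went from 34.8% of the gene untreated to 47.5% treated. In ATG16L1, NM_030803, which holds 57 bases that NM_017974 lacks, was at 46.4% and 27.3%, while NM_001190266 was at 0.00142% and 9.69%. GAA showed NM_000152 at 0.000668% and 12.7%, CTSL showed NM_001257971 at 32.0% and 17.2%, LIPA showed NM_001127605 at 34.1% and 22.7%, and GUSB showed NR_120531 at 15.2% and 4.46%. The shifts rest on how the authors' software divided fragments among overlapping records.

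**Figure D4:**
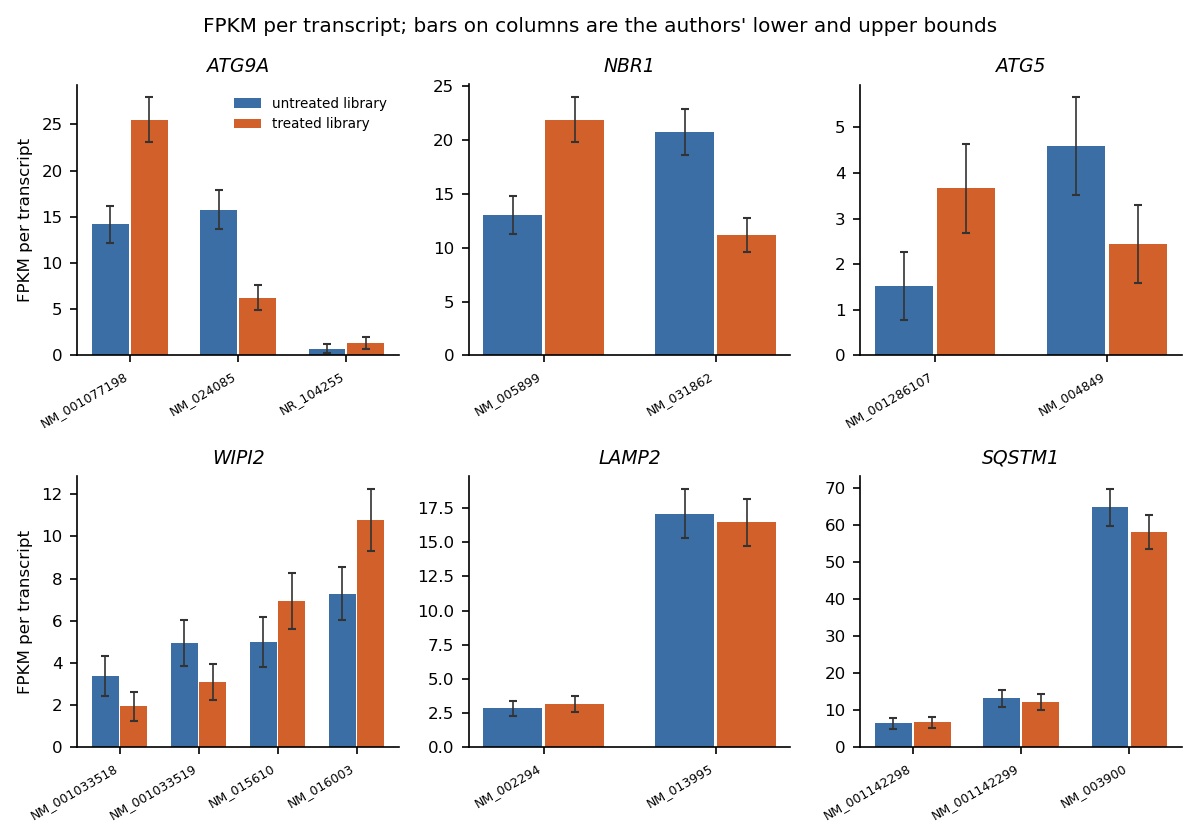
FPKM of each transcript of at least 1 FPKM in either library for 6 genes, untreated (blue columns) and treated (orange columns), with lines for the authors' lower and upper bounds. The columns cross over in ATG9A, NBR1 and ATG5, are divided over 4 transcripts in WIPI2, and keep their proportions in LAMP2 and SQSTM1.

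Some members share sequence with other records. Exonic bases overlapped those of another gene in 8 members, among them CTSA with PLTP and NEURL2, SQSTM1 with C5orf45 and MGAT4B, and ATG7 with VGLL4. In GENCODE 29 transcripts, the share of 50-base words also found under another gene name was 65.7% for ATP6V0C, 48.9% for GABARAP, 45.0% for CTSD and 33.6% for ATG9A. It was under 5% for 37 of the 55 genes. The levels of the former genes are uncertain to the extent that reads were divided among such records, and whether the libraries keep strand is not given in the sources used here.

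Of the wider pathway, 155 further genes on 7 lists were measured, 129 of them above the floor. The median log2 ratio of the 129 genes was 0.01, with 68 higher and 61 lower. A 1.2-fold difference was reached by 9 upward, against 8.1% of all genes, and 6 downward, against 6.79%. Counting intervals lay above 1 in 12, against 6.41% of all genes, and below 1 in 6, against 6.05%. The other lysosomal hydrolases had a median of 0.02 over 26 genes, the other membrane proteins 0.04 over 18, and the other autophagy machinery -0.05 over 21. Selective autophagy receptors had a median of -0.01 over 13 genes, and genes of nutrient and energy control 0.02 over 29.

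**Figure D5:**
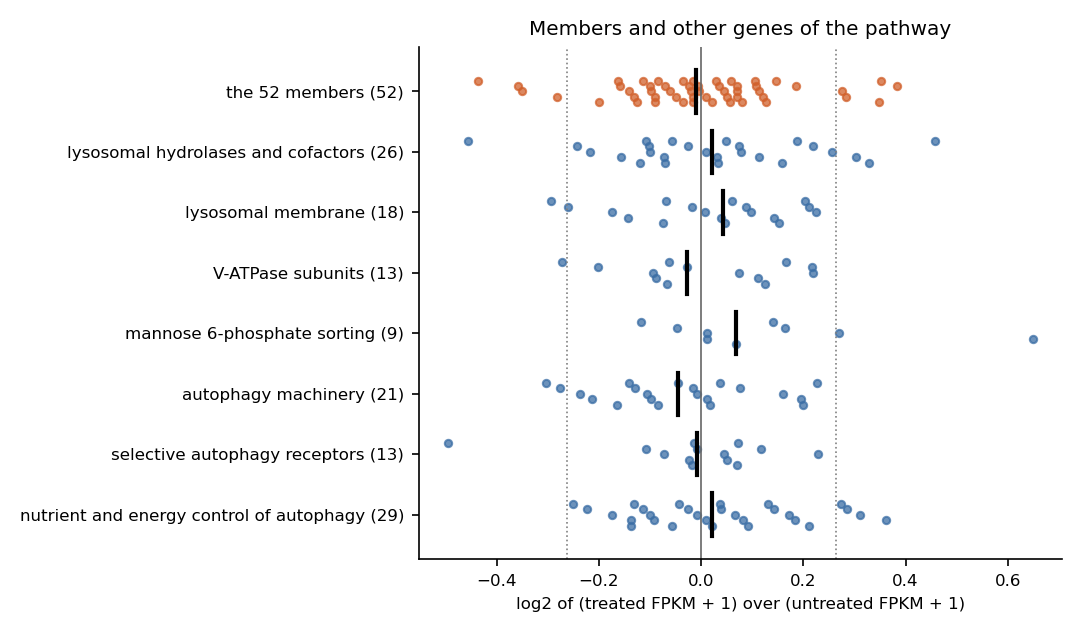
Log2 of (treated FPKM + 1) over (untreated FPKM + 1) for the 52 members above 1 FPKM (orange) and 7 lists of other pathway genes (blue), 1 point per gene, with a black line at each median and dotted lines at 1.2-fold. All medians lie between -0.05 and 0.07, and NAGPA, at 0.65, is the point farthest from 0.

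Single genes of these lists differed more than their medians. NAGPA, which uncovers the mannose 6-phosphate tag of lysosomal enzymes, was at 4.72 FPKM untreated and 7.96 treated, a ratio of 1.69 (1.22 to 2.35). IGF2R, the receptor that carries tagged enzymes, was at 11.5 and 14.1 FPKM, giving a ratio of 1.22 (1.11 to 1.35), and the adaptor GGA2 at 13.0 and 14.7. With 7 of 9 genes higher, against 5917 of all 11668 genes, mannose 6-phosphate sorting had the highest median of the 7 lists, 0.07. FUNDC1, a mitophagy receptor, was lower, at 12.1 and 8.31 FPKM, giving a ratio of 0.685 (0.480 to 0.974).

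Hydrolases and regulators named by the same rule lay both ways. GALNS, which degrades keratan sulfate, was at 5.66 FPKM untreated and 8.15 treated, a ratio of 1.44 (1.08 to 1.92), and SGSH, which acts on heparan sulfate as NAGLU does, at 9.97 and 12.5, a ratio of 1.26 (1.02 to 1.55). The sialic acid exporter SLC17A5 was at 12.6 and 10.4 FPKM, the pump subunit ATP6V1E1 at 85.5 and 74.2, and TMEM41B, a scramblase needed for autophagosome formation, at 14.6 and 11.9, all with intervals below 1. DDIT4, an inhibitor of mTORC1, was at 32.5 and 39.6 FPKM, giving a ratio of 1.22 (1.05 to 1.40), and LAMTOR4, of the complex that anchors mTORC1 to lysosomes, at 70.1 and 85.6, a ratio of 1.22 (1.01 to 1.48). BNIP3, a mitophagy receptor, was at 193 and 210 FPKM, giving a ratio of 1.08 (1.02 to 1.15).

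The further genes of these lists named by the rule were mostly within counting error. ARSA, an arylsulfatase, was at 5.82 FPKM untreated and 4.76 treated, and the acid phosphatase ACP2 at 4.59 and 5.67. CD68, a membrane glycoprotein known as a macrophage marker, was at 15.7 and 12.6 FPKM, giving a ratio of 0.804 (0.644 to 1.003), and the lysosomal membrane protein CLN3 at 11.5 and 10.1. The pump subunits TCIRG1, ATP6V0B and ATP6V1G1 were at 16.1 and 18.8, at 37.4 and 42.1 and at 26.3 and 30.7 FPKM. The sorting adaptor GGA3 was at 11.7 and 13.0 FPKM. RB1CC1, a partner of ULK1, was at 12.6 and 11.1 FPKM, giving a ratio of 0.883 (0.782 to 0.997) that leaves out 1.

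Of the remaining named genes, the lipid transfer protein ATG2A was at 6.51 FPKM untreated and 7.62 treated, and WDR45, a relative of the WIPI proteins, at 11.5 and 9.77. TEX264, a receptor for the endoplasmic reticulum, was at 14.2 and 16.8 FPKM, and PINK1, a kinase that starts mitophagy, at 27.0 and 24.9. The mTOR inhibitor DEPTOR was at 8.32 and 9.59 FPKM, and the Rag GTPase RRAGC at 9.73 and 11.4. All 6 intervals include 1.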

How the data were processed

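Per the labels, total RNA was extracted and made into TruSeq libraries. TopHat, Cuffdiff and the build hg38 are named, without versions, per the submitters' processing notes. The FPKM values the authors deposited are per RefSeq transcript, with lower and upper bounds, and name Cufflinks as source; the score that the authors' files also hold was not used.

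FPKM was summed per gene. Comparison was limited to genes averaging 1 FPKM or more, with a pseudocount of 1. Fragments were recovered in 1-transcript genes as the square of 2 × FPKM over the distance to the upper bound, and otherwise estimated from FPKM, length and depth. Only 21.1% (untreated) and 21.3% (treated) of these were whole within 0.01, so they are estimates. Python 3.11.15, numpy 2.4.6, pandas 2.3.3 and scipy 1.17.1 were used. The interval was tested on simulated data, with the outcome not reported here. Every member is named, and of each other list up to 4 genes with the largest absolute log2 ratio among genes averaging 5 FPKM or more with 50 fragments over both libraries. Of the latter, 1 gene is not reported here. Members and lists were chosen with earlier results of these data known. The minimum of 100 or 500 fragments was chosen after the values were seen. A planned comparison of ATG8 proteins was not run.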

Additional observations from a re-analysis of the deposited data

How the results depend on the processing

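Under 10 alternative settings, the median log2 ratio of the members stayed between -0.013 and 0.005, and 118 of 127 summary values stayed within the spread set for them. For most role groups that spread ran from the lowest to the highest gene of the group. A median can hardly leave such a range, so the count says little about those groups. The count of members at least 1.2-fold higher was 1 with a pseudocount of 5 FPKM and 9 with the most abundant transcript in place of the gene sum, and the count at least 1.2-fold lower was 1 with a pseudocount of 5 FPKM. With the most abundant transcript, the median was 0.10 for the 2 transcription factors and 0.27 for the 2 cargo receptors. A 99% interval lay above 1 in 1 member and below 1 in 3. The authors' bounds did not overlap in 1 member higher and 1 lower of the 26 with 1 transcript, where the 95% counting intervals lay above 1 in 4 and below 1 in 2. Settings that change only the floor or the fragment minimum cannot move the value of a single member. Nor can the most abundant transcript move that of a 1-transcript gene. Of 516 values of single members, which include such fixed ones, 510 stayed within their counting interval. The other 6 all came from the most abundant transcript, with log2 ratios of 0.80 for ATG9A, 0.70 for NBR1, 0.51 for WIPI2, 0.16 for TFE3, -0.29 for GAA and -0.70 for ATG5. The cause was not tested. No paired analysis was possible because each group is 1 library.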

Other observations

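The 7-base motif TCACGTG was also counted in promoters of the other pathway lists, as a description, against 4.49% of all genes and 7.36% of genes over 1 FPKM with a promoter. It was present in 4 of 8 mannose 6-phosphate sorting genes with a promoter in the table (GNPTG, IGF2R, M6PR and NAGPA), 5 of 23 other hydrolases, 3 of 14 other V-ATPase subunits, 3 of 18 other membrane proteins and 6 of 27 genes of nutrient and energy control. It was present in 2 of 21 genes of the other autophagy machinery and 0 of 11 selective autophagy receptors. These genes were named for the motif after the values were seen.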
